A study of Mus musculus with 6 samples.

Results

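Open chromatin at 9 Fc receptor genes was described from ATAC-seq peak lists of mouse peripheral blood white cells. The genes were Fcgr1, Fcgr3, Fcgr4 and Fcer1g, grouped here as activating receptor genes, Fcgr2b, Fcer2a, Fcmr and Fcrl1, grouped as B cell receptor genes, and Fcgrt, which was put in neither class. A peak belonged to a gene when its summit lay in the gene body or within 3 kb of an annotated start. All 9 genes had a peak in at least 1 library, as had 15382 of the 21738 protein-coding genes of the main chromosomes. Peaks of the 6 libraries that shared a base were merged into 62876 regions, of which 20 belonged to the 9 genes, 9 to each class and 2 to Fcgrt.

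The study compared 3 libraries of control mice with 3 libraries of HADA mice, where HADA stands for high-altitude de-acclimatization, the weeks that follow a return from thin air to normal oxygen. Per the study's methods the animals were male C57BL/6j mice bought as young adults, HADA mice were kept for weeks in a hypobaric chamber and then moved to normoxia, and controls stayed in normoxia. The day on which blood was drawn for this assay is not given in the sources used here, nor is it stated whether a library was 1 animal, so the spread between libraries may be partly technical. ATAC-seq cuts accessible DNA with the Tn5 transposase, and red cells had been lysed. The labels and the study's methods name white blood cells or leukocytes, while its results text names mononuclear cells, which would hold few neutrophils, so how much of a library was granulocytes by design is uncertain.

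Fc receptors bind the constant part of antibodies and couple antibody to cells. The receptors encoded by Fcgr1, Fcgr3 and Fcgr4 bind IgG on myeloid cells and signal through the shared gamma chain encoded by Fcer1g, whereas Fcgr2b encodes the inhibitory IgG receptor of B cells and of some myeloid cells. Fcer2a encodes the low-affinity IgE receptor (CD23), Fcmr the IgM receptor, Fcrl1 an Fc receptor-like protein of B cells, and Fcgrt the heavy chain of the neonatal receptor that recycles IgG.

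The following stretches around summits (GRCm39, 5′ to 3′ on the strand of the gene) are shown because the differences described here rest on these regions. Capitals mark the letters TTGCNNAA (bound by C/EBP factors), TGTGGT (RUNX), TGANTCA (AP-1) or TTCNNNGAA (STAT factors) on either strand.
Fcgr1 start, chr3:96200966-96201166, minus strand: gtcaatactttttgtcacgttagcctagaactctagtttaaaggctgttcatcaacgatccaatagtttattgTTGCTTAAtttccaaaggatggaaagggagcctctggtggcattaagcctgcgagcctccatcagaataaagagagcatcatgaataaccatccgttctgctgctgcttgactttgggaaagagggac
Fcgr3 upstream start, chr1:170891986-170892186, minus strand: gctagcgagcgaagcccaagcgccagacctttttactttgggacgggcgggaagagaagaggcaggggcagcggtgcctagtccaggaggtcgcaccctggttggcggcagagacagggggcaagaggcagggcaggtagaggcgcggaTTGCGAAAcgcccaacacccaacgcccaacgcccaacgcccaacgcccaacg
Fcgr4 upstream, chr1:170845294-170845494, plus strand: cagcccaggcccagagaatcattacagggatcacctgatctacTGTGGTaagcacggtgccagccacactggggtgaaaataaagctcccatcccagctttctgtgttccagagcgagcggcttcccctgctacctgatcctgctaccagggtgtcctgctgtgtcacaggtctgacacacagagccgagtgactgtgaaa
Fcgr2b start, chr1:170803451-170803572, minus strand: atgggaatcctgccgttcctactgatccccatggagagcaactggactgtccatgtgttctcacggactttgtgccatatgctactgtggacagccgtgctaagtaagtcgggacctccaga
Fcer2a start, chr8:3744245-3744445, minus strand: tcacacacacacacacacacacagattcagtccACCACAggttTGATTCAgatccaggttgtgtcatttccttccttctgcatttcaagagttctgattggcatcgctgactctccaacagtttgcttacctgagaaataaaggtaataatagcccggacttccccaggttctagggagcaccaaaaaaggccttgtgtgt
Fcmr upstream, chr1:130792273-130792473, plus strand: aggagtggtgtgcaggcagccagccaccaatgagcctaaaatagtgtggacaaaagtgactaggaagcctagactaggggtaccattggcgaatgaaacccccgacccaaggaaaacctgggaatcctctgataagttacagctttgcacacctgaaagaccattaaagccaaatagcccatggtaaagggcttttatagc
Fcmr intron, chr1:130804911-130805111, plus strand: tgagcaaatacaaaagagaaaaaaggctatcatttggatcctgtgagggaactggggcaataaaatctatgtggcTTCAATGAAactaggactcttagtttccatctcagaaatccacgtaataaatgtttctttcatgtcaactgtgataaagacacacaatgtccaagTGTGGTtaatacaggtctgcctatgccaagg
Fcrl1 distal, chr3:87308741-87308941, plus strand: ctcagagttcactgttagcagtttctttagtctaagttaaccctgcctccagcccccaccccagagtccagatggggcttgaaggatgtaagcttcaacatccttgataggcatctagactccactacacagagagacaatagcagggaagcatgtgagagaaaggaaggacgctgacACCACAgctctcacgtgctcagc

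Within 100 bp of the summit, 12 of the 20 regions held at least 1 of the 8 motifs searched on both strands and 8 held none. TGTGGT was in 8 of 20 regions, against 17.5% of all regions, and was found in both classes. TTGCNNAA was in 3 of 20, at the Fcgr1 start and at both Fcgr3 starts, against 8.74% of all regions. TTCNNNGAA was in 2 (5.87% of all regions), TGANTCA in 1 (5.54%), GAGGAAGT, the PU.1 motif, in 1 (4.17%) and GAAANNGAA, the interferon response motif, in 1 (6.44%). No member window held CCCNNGGGA (EBF, 4.58% of all regions) or ATGCAAAT (octamer, 1.64%). The windows were 35.8% to 65.7% GC with a median of 47.5%, beside a median of 49.8% over all regions, and the Fcgr3 upstream start was the richest. The 50 bases at the summit occurred once in the genome for 18 of 20 regions. Those of the Fcgr3 upstream start occurred 3 times, with the other copies 7635 and 15249 bp away on chromosome 1. Those of a weak Fcgr2b region in control 1 occurred 2 times, with the other copy inside Fcgr3, so reads at these 2 regions may come from another copy.

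Peak heights are given as the summit pileup divided by the median summit pileup of the 23970 regions with a peak in all 6 libraries, so that 1 is the height of the median shared region of that library. That median was 49 to 58 in the controls and 77 to 92 in the HADA libraries. Control 3 stood apart before any comparison: it had 34045 peaks against 41214 to 45799 in the other libraries, and peaks at 5 of 8 B cell marker genes against 8 of 8. Depth, read from the genome-wide background pileup, ranged from 1.69 to 2.05 in the controls and from 1.99 to 2.34 in the HADA libraries. For tested regions where control 3 lay far from the other controls, and for the class ratio, the difference without it is also given. With 3 libraries against 3 an exact permutation test of a single value cannot go below 0.1, so separation of the groups is stated instead.

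The activating and the B cell receptor genes went in opposite directions between the groups. The tallest peak was lower in every HADA library than in every control at 4 of 4 activating genes, and higher in every HADA library at 3 of 4 B cell genes, Fcgr2b, Fcer2a and Fcmr. Over all genes with a peak, 16.2% were lower and 33.8% higher without overlap, so separation upward was common in these lists. Fcrl1 and Fcgrt overlapped between the groups. A gene with no peak in a library was counted as 0 here. In bulk blood, fewer cells of a type and less accessibility per cell cannot be told apart.

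**Figure D1:**
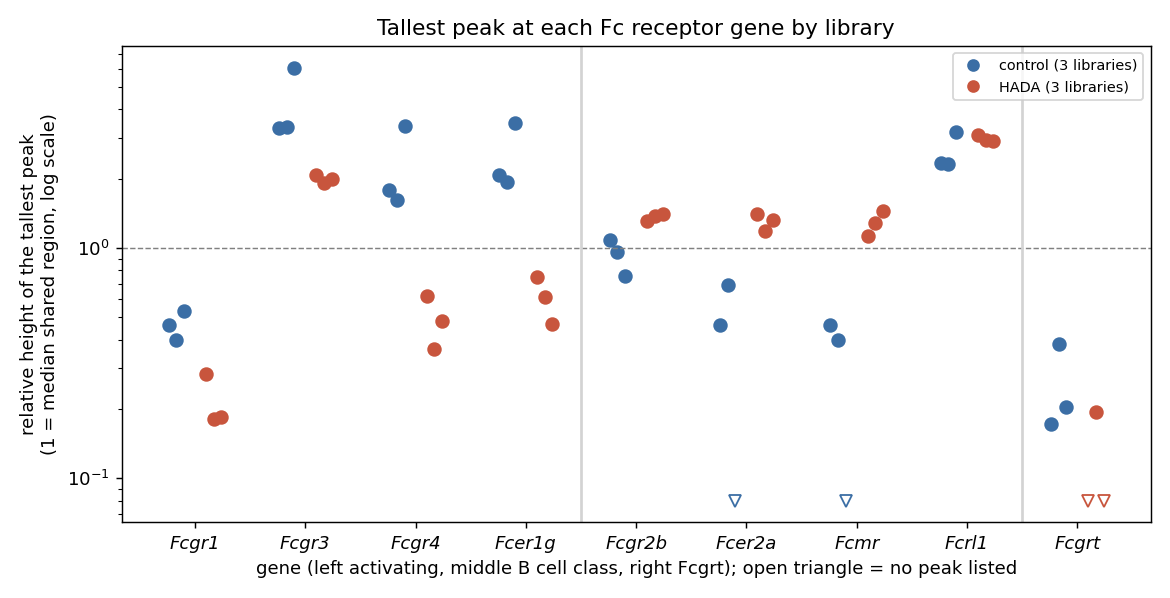
Relative height (log scale, 1 is the median shared region) of the tallest peak at each of the 9 genes, 1 point per library, with open triangles where no peak was listed. Control points lie above HADA points at the 4 activating genes and below them at Fcgr2b, Fcer2a and Fcmr.

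Of the 20 regions, 7 had a peak in all 6 libraries and were tested with limma. All 4 tested regions of activating genes were lower in HADA, and 2 of 3 of B cell genes were higher, at Fcgr2b and Fcrl1. Across all shared regions 24.1% were called lower and 17.9% higher, so that 42.7% of all calls were higher, against 62.8% when pileups were scaled by the genome-wide background. The median log2 difference was -1.57 for the 4 activating regions and 0.56 for the 3 of the B cell class, beside -0.04 over all shared regions. When each region was instead ranked by its fold enrichment over local background, 2 member regions were lower and 0 higher. The number called also depended on single libraries, since leaving 1 library out left 2 to 5 member regions called lower and 0 to 3 called higher, over tested regions that could then include those without a peak in the library left out.

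**Figure D2:**
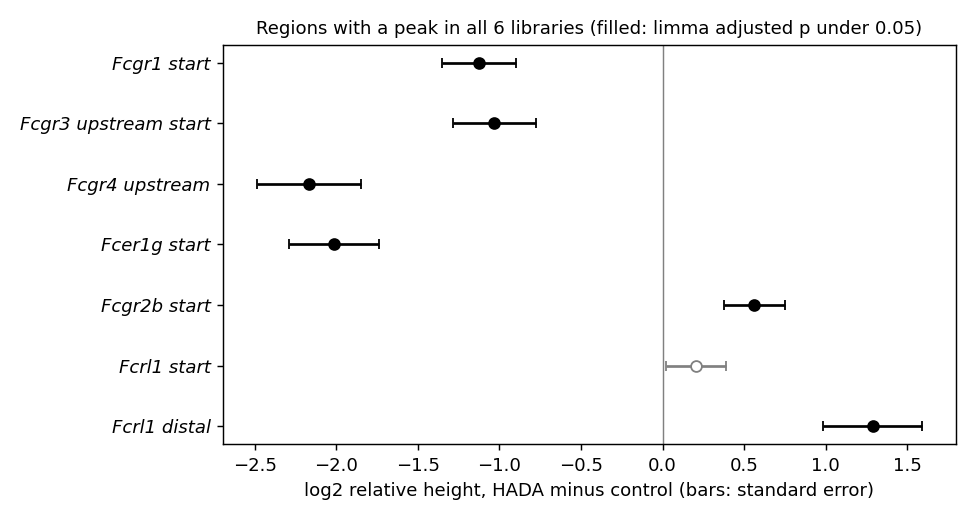
Log2 difference in relative height, HADA minus control, with its standard error, at the 7 member regions with a peak in all 6 libraries. Filled points passed the limma test at an adjusted p under 0.05, and the start of Fcrl1 is the only open one.

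Fcer1g encodes the gamma chain needed by the activating receptors at the cell surface. The region at its start (chr1:171060491-171062416), with its summit in the 5′ UTR exon 72 bp inside the gene, stood at 2.09, 1.95 and 3.49 in the controls and at 0.75, 0.61 and 0.469 in HADA. The groups lay far apart, with the highest value in control 3. The difference was -2.01 ± 0.28 on the log2 scale (SE, n = 3 per group), 4.04-fold lower in HADA, with a limma adjusted p of 0.00839. Without control 3 the difference was -1.80. Gm71631 overlaps the summit, so the region cannot be assigned to Fcer1g alone. A second region in an intron of Fcer1g had no peak in control 1 and stood at 0.6 and 0.796 in the other controls and at 0.467, 0.338 and 0.259 in HADA. With control 1 counted as 0 the groups overlapped, and no test of this region is given, for it could be fitted only without that control. Its fold enrichment over local background was 2.5 and 2.09 in those controls and 4.24, 3.68 and 3.3 in HADA, the opposite order to the heights.

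Fcgr4 encodes an IgG receptor of neutrophils and monocytes. The region 1072 bp upstream of its start (chr1:170844468-170845635), whose summit sequence carries a TGTGGT, stood at 1.79, 1.62 and 3.39 in the controls and at 0.62, 0.364 and 0.481 in HADA. It had the largest difference of the 7 tested member regions, -2.17 ± 0.32 on the log2 scale (limma adjusted p = 0.00892), a 4.49-fold lower height in HADA. Without control 3 the difference was -1.89. This call and that at the Fcer1g start held in all alternatives run. A small peak 65 bp upstream of the start itself was listed in control 3 at 0.653, in HADA 1 at 0.283 and in HADA 3 at 0.198, and in no other library.

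Fcgr3 encodes the activating IgG receptor CD16. Its tallest region (chr1:170891437-170893568) lies at an annotated alternative start, 4922 bp upstream of the canonical one, and stood at 3.33, 3.36 and 6.08 in the controls and at 2.09, 1.92 and 1.99 in HADA. It was 2.04-fold lower in HADA, a difference of -1.03 ± 0.25 on the log2 scale (limma adjusted p = 0.0177). Its summit pileups were 193, 185 and 298 in the controls and 192, 148 and 161 in HADA, so before scaling HADA 1 lay within the controls. Without control 3 the difference was -0.80 and the limma adjusted p 0.00929, whereas the call was lost without HADA 2 (0.0662) or HADA 3 (0.0546), when heights were scaled by the genome-wide background (0.0587), and by rank of fold enrichment, where the difference was -0.28 normal-score units (0.281). The region at the canonical start stood at 1.14, 0.8 and 1.98 in the controls and had a peak in HADA 1 only, at 0.522. A region in an intron (chr1:170884865-170885559) had a peak in all 3 controls, at 0.586, 0.782 and 1.51, and in no HADA library. Fcgr3 was the 1 member whose number of peaks separated the groups, with 3, 3 and 4 in the controls and 2, 1 and 1 in HADA. Over all genes with a peak, 1.98% had fewer peaks in HADA without overlap and 10.6% had more, and no member was among the latter.

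Fcgr1 encodes CD64, the high-affinity IgG receptor. The 1 region at this gene (chr3:96200823-96201597), 183 bp inside a start, was low in every library, at 0.466, 0.4 and 0.531 in the controls and 0.283, 0.182 and 0.185 in HADA. The values of the groups did not overlap. It was 2.18-fold lower in HADA, -1.13 ± 0.23 on the log2 scale (limma adjusted p = 0.0114), and the limma adjusted p was 0.0525 without HADA 2 and 0.102 by rank of fold enrichment. The summit pileups were 27, 22 and 26 in the controls and 26, 14 and 15 in HADA, so before scaling HADA 1 lay within the controls.

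**Figure D3:**
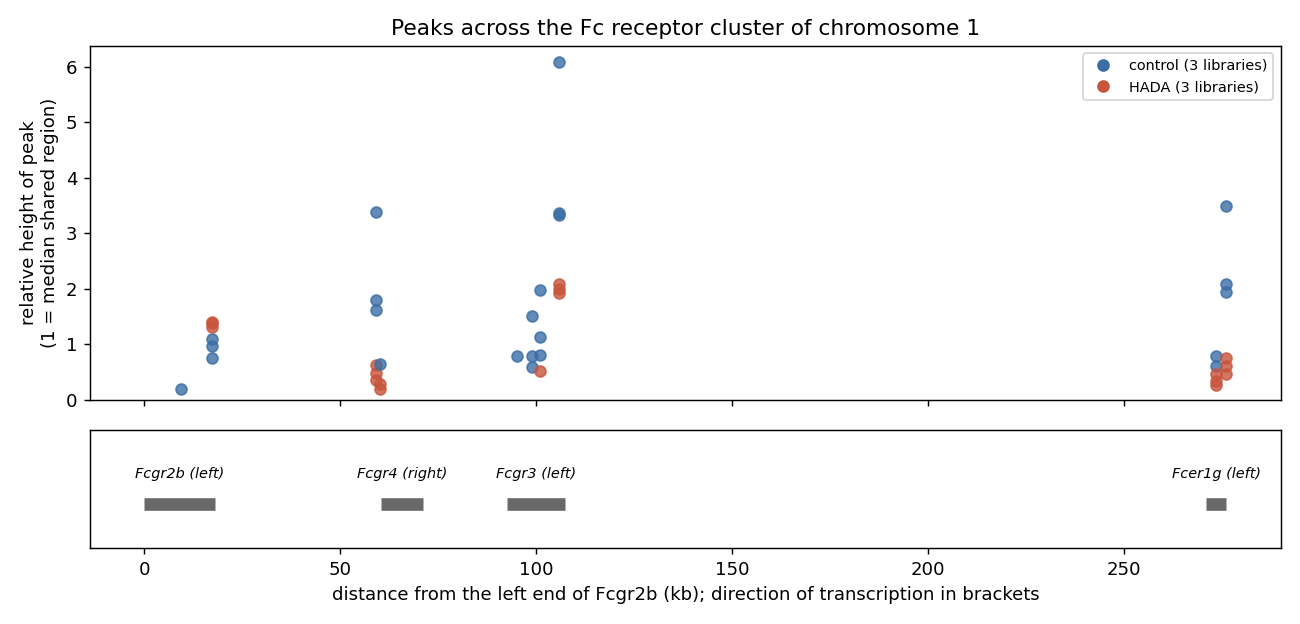
Relative height of every peak at Fcgr2b, Fcgr4, Fcgr3 and Fcer1g against distance from the left end of Fcgr2b in kb, with gene bodies drawn to scale underneath and 1 point per library and region. HADA points are above control points at the start of Fcgr2b and below them at the tallest regions of Fcgr4, Fcgr3 and Fcer1g.

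Fcgr2b lies in the same cluster of chromosome 1 and encodes the inhibitory receptor that counteracts the activating ones. The region at its start (chr1:170803120-170804097), with its summit in an exon, stood at 1.09, 0.964 and 0.755 in the controls and at 1.32, 1.38 and 1.41 in HADA. It was 1.48-fold higher in HADA, 0.56 ± 0.19 on the log2 scale (limma adjusted p = 0.0427). This was the highest adjusted p of the 6 calls. The call was lost without control 2 (limma adjusted p = 0.0581), without control 3 (0.0873), and without HADA 1 (0.102), HADA 2 (0.126) or HADA 3 (0.122). Without control 3 the difference was 0.37. The call was also lost by rank of fold enrichment (limma adjusted p = 0.112), and in 7 alternatives in all. It held in 5, among them scaling by the genome-wide background, where the difference was 0.94 (limma adjusted p = 0.00593). Gm38204 overlaps the summit, so the region cannot be assigned to Fcgr2b alone.

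Fcer2a and Fcmr had no peak in control 3, and so were outside the test of shared regions. At the start of Fcer2a (chr8:3743376-3744671) the heights were 0.466 and 0.691 in controls 1 and 2 and 1.4, 1.18 and 1.32 in HADA. The region 1033 bp upstream of Fcmr (chr1:130791744-130793783) stood at 0.466 and 0.4 in controls 1 and 2 and at 1.13, 1.29 and 1.44 in HADA. All 3 HADA values lay above both controls. No test is given for these 2 regions, since they could be fitted only by leaving out the control without a peak. Further into Fcmr, an intronic region (chr1:130804866-130806294) had a peak in each HADA library, at 0.359, 0.325 and 0.395, and in no control. A smaller intronic region was listed in HADA 2 at 0.195 and HADA 3 at 0.235. Of the 20 member regions 1 was in every HADA library and no control, against 7.01% of all regions, and 2 were in every control and no HADA library, against 1.88%. A peak is listed where its summit exceeds the local background, so a missing peak does not make a height 0. The lowest pileup listed anywhere in a library was 7 to 9, but more is needed where the background is high, as at the canonical start of Fcgr3, where the local background of the HADA 1 peak was 14.2.

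Fcrl1 had 2 regions with a peak in every library, at its start and near its far end. The start region (chr3:87283417-87284751) was tall in every library, at 2.34, 2.31 and 3.18 in the controls and 3.09, 2.94 and 2.91 in HADA. Control 3, in which B cell markers were lowest, had the highest value here. The groups overlapped and the limma difference, 0.20 ± 0.18, did not pass (adjusted p = 0.393), and was 0.30 without control 3. It was 0.58 when heights were scaled by the genome-wide background (limma adjusted p = 0.0927) and -0.53 normal-score units by rank of fold enrichment (0.0793), so its direction depended on the measure. The distal region (chr3:87308359-87309394), 25207 bp into the gene from its canonical start, stood at 0.931, 0.909 and 0.429 in the controls and at 1.64, 1.69 and 1.9 in HADA. It was 2.44-fold higher in HADA, 1.29 ± 0.30 on the log2 scale (limma adjusted p = 0.0159). Without control 3 the difference was 0.87 with a limma adjusted p of 0.00849. The call was lost without HADA 2 (limma adjusted p = 0.0567) or HADA 3 (0.0502), and by rank of fold enrichment, where the difference was 0.12 normal-score units (0.694). The transcript Gm31940 overlaps the start summit, so that region cannot be assigned to Fcrl1 alone.

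Fcgrt showed little open chromatin by these lists. A region with its summit in a UTR exon, 56 bp upstream of an annotated start (chr7:44753013-44753555), was listed in the 3 controls at 0.172, 0.382 and 0.204. It was listed in no HADA library. Another, 87 bp inside a start, was listed in HADA 2 at 0.195 alone. The summit pileups were 10, 21 and 10 in the controls and 15 in HADA 2, where the lowest pileup listed anywhere in those libraries was 7, 8, 8 and 8.

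The class totals gave the contrast within each library. The summed relative height of peaks was 9.4, 9.51 and 19.2 at the activating genes in the controls and 5.01, 3.42 and 3.58 in HADA. At the B cell genes it was 5.83, 5.62 and 4.37 in the controls and 8.93, 9.29 and 10.1 in HADA. The totals of both classes separated the groups. Their ratio, activating over B cell, was 1.61, 1.69 and 4.4 in the controls and 0.561, 0.368 and 0.355 in HADA. The sums run over the peaks listed in each library, which need not be the same regions. On the log2 scale it was 1.20 ± 0.82 in control and -1.26 ± 0.37 in HADA (SD, n = 3), a difference of -2.45, or -1.98 without control 3. With fold enrichment over local background as height in place of the pileup, the difference was -0.87.

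The number of peaks hid this contrast. There were 14, 14 and 13 peaks at the 9 genes in the controls and 13, 14 and 14 in HADA. The activating genes had 6, 7 and 9 against 7, 5 and 6, and the B cell genes 7, 6 and 3 against 6, 8 and 8, so both classes overlapped. The B cell genes separated the groups upward without HADA 1, and with a window of 10 kb around starts, by 4.33 peaks, as did all 9 genes, by 2.67. The covered length was 5812 to 7777 bp in control and 5574 to 5773 bp in HADA for the activating genes, and 1659 to 4615 bp and 6865 to 7587 bp for the B cell genes. The mean height per peak was 1.69 ± 0.40 against 0.665 ± 0.062 at the activating genes and 1.07 ± 0.33 against 1.30 ± 0.17 at the B cell genes (SD, n = 3), and it overlapped between the groups only in the latter.

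**Figure D4:**
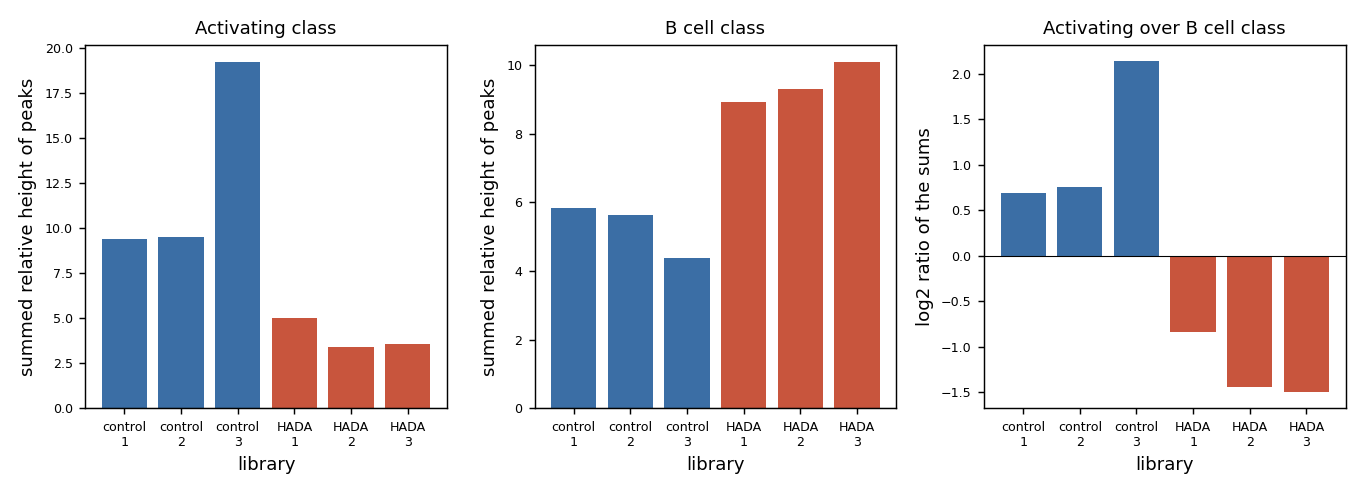
Summed relative height of peaks at the 4 activating genes and at the 4 B cell genes, and the log2 ratio of the sums, 1 bar per library with control in blue and HADA in red. The ratio is above 0 in the 3 controls, highest in control 3, and below 0 in the 3 HADA libraries.

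Markers of whole cell types moved with both classes. Of the shared start regions of marker genes, 4 of 4 tested for B cells were higher in HADA (median log2 difference 1.99), 5 of 6 for neutrophils lower (-1.75) and 6 of 6 for monocytes lower (-1.17), while 2 of 4 for T cells were higher. None of the 8 housekeeping genes was called, nor was the 1 NK cell or the 1 platelet and erythroid gene tested, and the 1 tested gene for eosinophils, basophils and mast cells was lower. The summed height of the 8 B cell markers ranged from 1.43 to 7.48 in control and from 15.3 to 15.7 in HADA, and that of the 9 neutrophil markers from 7.58 to 18.6 and from 2.56 to 4.22. For the 8 monocyte markers the sums ran from 8.98 to 10.6 and from 5.7 to 6.36. The sums were higher in every HADA library for eosinophils, basophils and mast cells, from 1.14 to 1.43 in control and from 1.68 to 2.04 in HADA, although the tested gene Siglecf was lower. They were also higher for platelets and erythroid cells, from 0.347 to 0.764 and from 1.35 to 1.42, while those of T cells, NK cells and housekeeping genes overlapped. Control 3 was lowest for B cells and highest for neutrophils. It was also highest for T cells, monocytes and housekeeping genes (42.7 against 28.3 to 33.2 in the other libraries). It was lowest too for NK cells, for eosinophils, basophils and mast cells, and for platelets and erythroid cells. Without it the tested genes called were 4 of 4 for B cells (median 1.35), 5 of 6 for neutrophils (-1.50), 6 of 6 for monocytes (-1.28) and 1 of 4 for T cells. Fcer1a and Ms4a2, the defining receptor genes of basophils and mast cells, had no peak in any library, and of the neutrophil list Camp had none. The part of cell composition in the differences at the Fc receptor genes was not tested. Among 49 genes of the lists, those nearest in profile to the Fcer1g start over the 6 libraries were Cd14 and S100a9, with Euclidean distances of 0.346 and 0.442 on the log2 scale. No such search could be made for Fcmr, which had no peak in control 3.

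**Figure D5:**
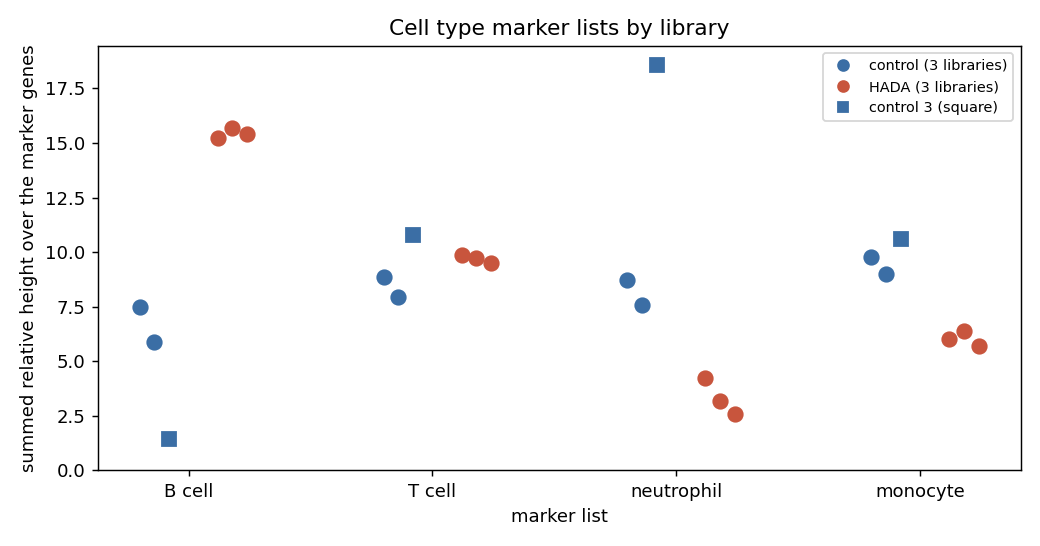
Summed relative height over the marker genes of B cells, T cells, neutrophils and monocytes, 1 point per library. HADA lies above control for B cells and below it for neutrophils and monocytes. Control 3 (square) is lowest for B cells and highest for T cells, neutrophils and monocytes.

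Genes that work with the Fc receptors mostly passed no test. Of 16 genes that signal below them, all had a shared start region, 1 was higher and 0 were lower by limma (median log2 difference -0.06). The 1 that rose was Blnk, an adaptor of B cell receptor signalling, which stood at 0.586, 0.6 and 0.265 in the controls and at 1.58, 1.79 and 1.67 in HADA (1.89 ± 0.31, limma adjusted p = 0.00927), and differed by 1.45 without control 3. The next highest was Pik3cd, a lipid kinase subunit, at 0.31 ± 0.16 with a limma adjusted p of 0.135. Lyn, a Src-family kinase, stood at -0.56 ± 0.28 and did not pass (limma adjusted p = 0.142), and at -0.30 without control 3. Syk, the kinase that binds the phosphorylated gamma chain, differed by 0.00 ± 0.22, or by 0.17 without control 3. Of 9 relatives of the Fc receptors, Fcer1a, Ms4a2 and Fcrl6 had no peak and 2 could be tested. Fcrla, an intracellular Fc receptor-like gene of B cells on the same stretch of chromosome 1, stood at 0.69, 0.582 and 0.265 in the controls and at 1.36, 1.27 and 1.41 in HADA (2.84-fold higher, limma adjusted p = 0.014), or 2.05-fold without control 3. Trim21, the cytosolic antibody receptor, differed by 0.33 ± 0.17 and did not pass (limma adjusted p = 0.15).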

How the data were processed

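Mouse ATAC-seq libraries of blood leukocytes were analysed as 1 peak list each, grouped by their labels (3 control, 3 HADA). Per the labels and the study's methods, the authors used Trimmomatic for trimming, Bowtie2 for alignment to GRCm39, Picard to drop duplicates and MACS2 for peaks, whose options are not given in the sources used here. The deposited lists give for each peak the fold of its summit over local background and a score, together with p-value and q-value as −log10. Replicates were not pooled. Because MACS2 derives fold and p from a pileup and a Poisson background, both were solved from the deposited values, for 100% of peaks within 0.05. Total read counts were not analysed here, so depth was read from the background pileup.

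Genes and starts came from the GENCODE annotation of GRCm39, and coordinates are 1-based. Log2 summit pileups of the 23970 shared regions, centred on each library's median, were compared with limma 3.58.1 (R 4.3.3), with Benjamini-Hochberg adjustment over all of them and calls at 0.05. Changes are relative to the median shared region, which was itself 0.38 higher in HADA (log2) when pileups were divided by the genome-wide background. Heights exist only where a peak was called. The test was tested on simulated data. Single values were compared by two-sided exact permutation, and motifs were counted with Python 3.11.15. Alternatives were other peak filters, scalings, gene windows, joining rules and leaving out each library. The listed genes without control 3 were added after seeing the data. Genes named from the Fc receptor lists were the 2 highest and 2 lowest by log2 difference, and those of like profile the 2 nearest. Some items under this rule are not reported here. Syk was added after its value was seen. The members and lists were chosen with earlier results of these data known.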

Additional observations from a re-analysis of the deposited data

How the results depend on the processing

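Of the 70 refits of the 6 called member regions, 54 kept direction and call and 16 kept direction but lost the call. Of the 12 refits of the Fcrl1 start, which was not called, none passed and 1 reversed. The Fcer1g and Fcgr4 calls held in all 12 alternatives each. Ranking by fold enrichment, which is taken over local background, left 0 member regions higher and 2 lower, turned the Fcrl1 start to -0.53, and gave 1574 higher and 1146 lower regions over the whole list (57.9% of calls higher). Scaling by the genome-wide background gave 7432 higher over the whole list. Leaving out 1 library gave 737 to 4813 higher and 2021 to 5917 lower regions over the whole list, the lowest without HADA 2, and 0 to 3 higher and 2 to 5 lower member regions. The deviations of same-numbered libraries correlated at -0.08, 0.08 and -0.38, and those of differently numbered ones at -0.47 to 0.49. With 3 libraries per group these values cannot show whether libraries were paired or shared a batch. With a replicate block 1 member region was higher in place of 2, with a limma adjusted p of 0.0949 at Fcgr2b. With the same number of strongest peaks in each list, HADA minus control was -2.33 peaks at the 9 genes and -3 at the activating genes, and with a window of 10 kb it was 2.67 and, at the B cell genes, 4.33. With fold enrichment as height, the log2 ratio of the classes differed by -0.87. The cause of these shifts was not tested. The Fcgr1 region could not be fitted with the same number of peaks or with summits joined within 200 bp, since it was then not in all 6 libraries. Depth limits which peaks were listed: no pileup under 7 to 9 was listed anywhere, and more was needed where the local background was high.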
